A study of Rattus norvegicus with 15 samples.

Results

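The 9 genes described here are surface and identity genes of resting (homeostatic) microglia, the resident macrophages of the brain: the receptors Gpr34, Cx3cr1, P2ry12, P2ry13 and Csf1r, the membrane protein Tmem119, the cytoplasmic protein Aif1, and the transcription factors Irf8 and Spi1. Every probe set of the array was taken that its annotation names with exactly 1 of these symbols. That gave 9 probe sets for 7 of the 9 genes, out of 14218 genes with such a probe set on the array; no probe set carried the name P2ry13 or Spi1, so those genes are not analysed here. The group was selected on values that included the ethanol-minus-water differences of these same 15 arrays, so those differences are given as a description and support nothing; where a count past the threshold of the fit over all probe sets is printed, it stands only beside the same count for the whole array.

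RNA of the ventral tegmental area, the midbrain region of the dopamine neurons that project to the nucleus accumbens and cortex, was hybridised to Affymetrix rat expression arrays, with 1 array for each of 7 rats with ethanol treatment and 8 age-matched water control rats. The series title places the ethanol rats after loss-of-control drinking and names the alcohol-preferring (P) line, which was bred for high alcohol intake; no sample label names a line, and the design text also refers to a line with low consumption. The sources used here give no sex, exact age, litter, amount drunk or time since the last drink, and ethanol animal 3 was not analysed here. Values are log2 RMA values, in which a difference of 1 is a doubling, as deposited by the authors. Th, which makes the dopamine precursor and is a defining marker of the region, averaged 14.80 ± 0.26 (SD, n = 8) in the water group and 14.94 ± 0.22 (SD, n = 7) in the ethanol group. Control transcripts for actin and GAPDH gave 3'-minus-5' differences of 1.359 to 1.501 in ethanol arrays and 1.384 to 1.601 in water arrays, and array medians ran from 7.75 to 7.79 and from 7.73 to 7.78.

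Microglia survive only while Csf1r, a receptor tyrosine kinase, is engaged by its ligands Csf1 or Il34. Spi1 (PU.1) and Irf8 are the transcription factors that set the myeloid programme, and TGF-beta signalling keeps the resting state with its P2ry12 and Tmem119 expression. Cx3cr1 receives the neuronal chemokine Cx3cl1, P2ry12 and P2ry13 sense extracellular ADP and steer the processes of microglia toward injured cells, and Gpr34 responds to lysophosphatidylserine. Aif1 (Iba1) binds actin and is the usual histological stain for microglia. These are bulk measurements, in which more microglia and more RNA per microglial cell cannot be told apart.

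The promoters below, from 250 bases before to 50 bases after the annotated start, are shown for the gene with the largest difference (Gpr34), the growth factor receptor that followed other cell markers from rat to rat (Csf1r) and the transcription factor (Irf8). They come from RefSeq on the rat build GRCr8, 5′ to 3′ on each gene's own strand, and capitals mark matches of GAGGAA on either strand, the core that PU.1 prefers, so that a match on the opposite strand reads TTCCTC. Gpr34 lies at chrX:11785787-11786086 on the minus strand, Csf1r at chr18:56834129-56834428 on the plus strand and Irf8 at chr19:65699034-65699333 on the plus strand.
Gpr34: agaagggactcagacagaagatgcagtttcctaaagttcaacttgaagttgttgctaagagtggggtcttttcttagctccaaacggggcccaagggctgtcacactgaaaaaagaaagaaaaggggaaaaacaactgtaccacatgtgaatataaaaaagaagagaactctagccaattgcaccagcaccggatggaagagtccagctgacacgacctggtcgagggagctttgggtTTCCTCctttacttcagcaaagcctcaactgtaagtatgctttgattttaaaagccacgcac
Csf1r: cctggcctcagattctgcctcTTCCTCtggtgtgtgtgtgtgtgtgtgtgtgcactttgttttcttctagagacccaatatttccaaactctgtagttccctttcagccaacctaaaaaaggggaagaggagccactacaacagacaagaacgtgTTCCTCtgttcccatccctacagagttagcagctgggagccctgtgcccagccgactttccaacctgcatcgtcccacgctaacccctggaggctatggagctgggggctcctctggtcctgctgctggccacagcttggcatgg
Irf8: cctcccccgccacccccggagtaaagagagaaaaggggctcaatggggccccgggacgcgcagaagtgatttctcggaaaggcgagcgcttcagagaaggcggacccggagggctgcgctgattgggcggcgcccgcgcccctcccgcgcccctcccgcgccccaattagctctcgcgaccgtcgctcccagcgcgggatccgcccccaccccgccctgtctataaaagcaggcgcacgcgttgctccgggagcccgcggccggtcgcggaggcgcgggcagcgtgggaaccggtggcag

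The table held a promoter for 5 of the 9 genes, namely these and Cx3cr1 and P2ry13. Gpr34 had 1 match, from 12 to 7 bases before the start, and Csf1r had 2, which began 229 and 95 bases before it. Irf8, Cx3cr1 and P2ry13 had 0 matches, which says only that these letters are not in these windows. The core was found in 27.6% of all 33469 promoters of the same 300-base length, so 2 of 5 is a description and not a sign of binding. The composite of an ETS and an IRF site, GGAANNGAAA, whose GGAA can coincide with the end of the core, was searched on both strands and was in 0 of the 5 promoters and in 2.94% of all. In the RefSeq annotation Gpr34 lies within the span of Cask, a scaffold kinase gene, and P2ry12 and P2ry13 lie within that of Med12l, a Mediator subunit gene.

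Gpr34 differed most between the groups. Its log2 value ran from 8.78 to 9.40 with a median of 9.20 in ethanol rats and from 7.93 to 8.59 with a median of 8.25 in water rats. The lowest ethanol rat, number 6, lay above the highest water rat, number 5, so the groups did not overlap. Its mean was 8.26 ± 0.23 (SD, n = 8) under water and 9.16 ± 0.22 (SD, n = 7) under ethanol, a difference of 0.89 (SE 0.11), or 1.86-fold, and it ranked number 3 among the differences of the 18625 probe sets above the filter on dim signals. Cask, whose span holds Gpr34, averaged 9.69 ± 0.06 (SD, n = 8) under water and 9.65 ± 0.11 (SD, n = 7) under ethanol, a difference of -0.03 (SE 0.05).

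**Figure D1:**
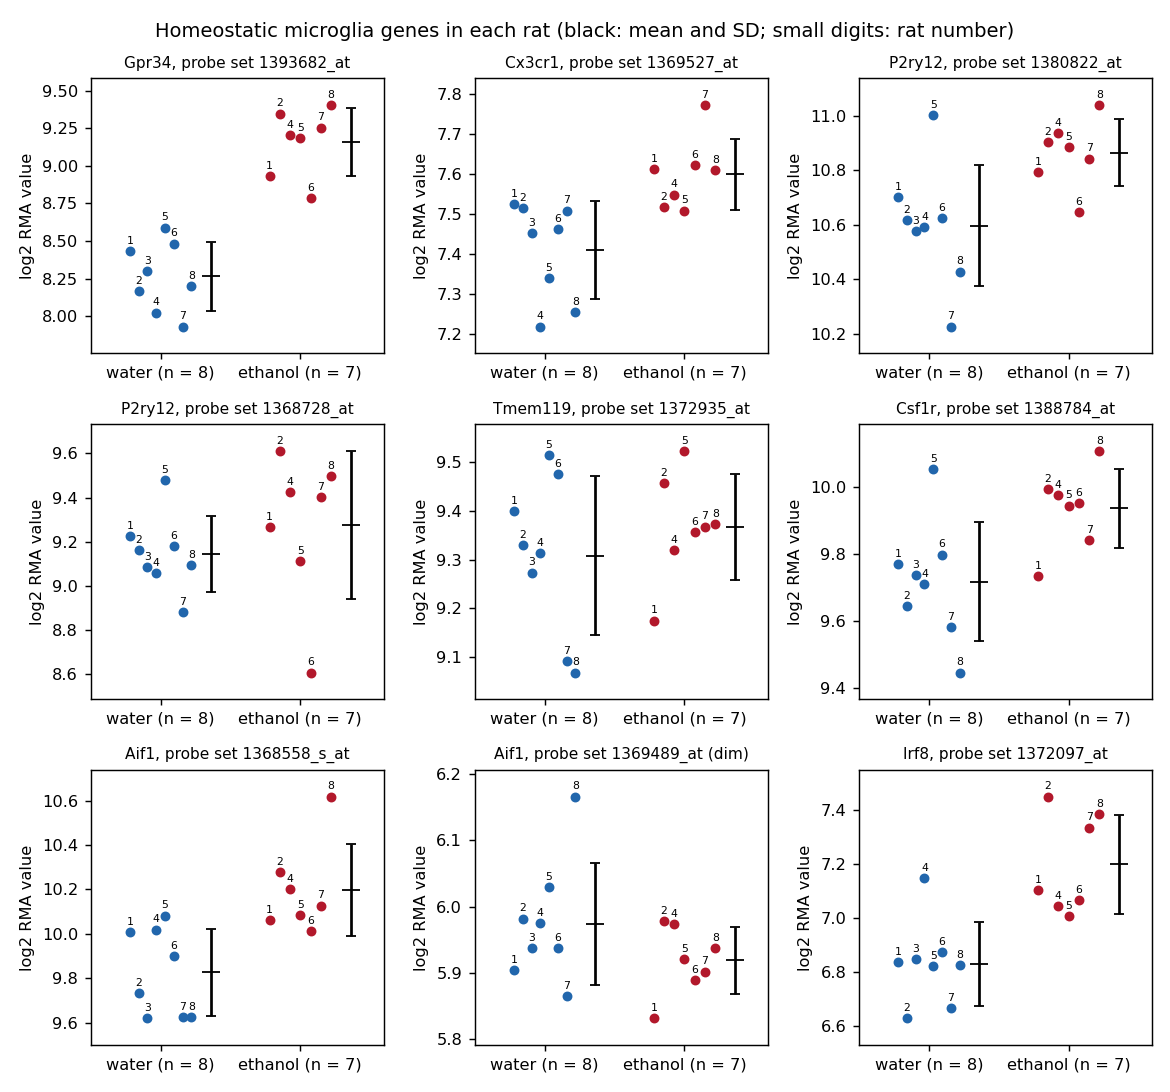
Log2 RMA value (vertical axis) of each probe set of the measured genes in 8 water and 7 ethanol rats; points are rats with their number, and black bars give the mean and SD of each group. Gpr34 has no overlap between groups, while water rat 5 lies within the ethanol range for P2ry12, Tmem119, Csf1r and the brighter Aif1 probe set.

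The ADP receptor P2ry12 was read by a pair of probe sets. On the brighter one, ethanol rats ran from 10.65 to 11.04 (median 10.88) and water rats from 10.23 to 11.003 (median 10.60). Water rat 5 lay above all ethanol rats but number 8, and the difference was 0.27 (SE 0.09). The dimmer one ran from 8.61 to 9.61 (median 9.40) in ethanol and from 8.88 to 9.48 (median 9.13) in water rats, with a difference of 0.13 (SE 0.12). Ethanol rat 6 was the lowest of all 15 there, and without that rat the difference was 0.24. The probe sets still ordered the rats alike, with a within-group Pearson r of 0.74 (n = 15, permutation p = 1.40e-04) and a Spearman rho of 0.79 (permutation p = 8.50e-04). Without the 2 rats farthest from the median, water rats 5 and 7, r was 0.74.

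Cx3cr1, the fractalkine receptor, ran from 7.51 to 7.77 (median 7.61) in ethanol rats and from 7.22 to 7.52 (median 7.46) in water rats. The groups overlapped by a narrow margin: 5 ethanol rats lay above every water rat and 2 water rats above the lowest ethanol rat. The difference was 0.19 (SE 0.06), or 1.14-fold.

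Csf1r, the survival receptor, ran from 9.73 to 10.11 (median 9.95) in ethanol and from 9.45 to 10.05 (median 9.73) in water rats. Its difference was 0.22 (SE 0.07), and 4 water rats lay above the lowest ethanol rat, number 1. Tmem119, a membrane protein that separates microglia from blood-derived macrophages, had the smallest difference of the 7 genes at 0.06 (SE 0.07). It ran from 9.18 to 9.52 (median 9.37) in ethanol rats and from 9.07 to 9.51 (median 9.32) in water rats, nearly the same span.

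Aif1 ran from 10.01 to 10.62 (median 10.13) in ethanol rats and from 9.62 to 10.08 (median 9.82) in water rats on its brighter probe set, a difference of 0.37 (SE 0.10). Ethanol rat 8 was the highest, and 5 ethanol rats lay above every water rat. The suffix of that probe set (s_at) marks probes that can match more than 1 transcript. The other Aif1 probe set averaged 5.95 over all arrays, below the filter, with a difference of -0.06 (SE 0.04).

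Irf8, which works with PU.1 at myeloid genes, ran from 7.01 to 7.45 (median 7.10) in ethanol rats and from 6.63 to 7.15 (median 6.83) in water rats. Water rat 4 alone reached into the ethanol range. The difference was 0.37 (SE 0.08), or 1.29-fold. Its mean over all arrays was 7.003 against the filter's 6.94, and the water mean of 6.83 lay below that limit, so the probe set passed through the ethanol group.

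Of the 9 probe sets, 8 passed the filter, and all 8 had a higher mean in ethanol rats, against 53.3% of all probe sets above the filter. The median difference of the 7 genes, each taken by its brightest probe set, was 0.27, and that of all probe sets above the filter was 0.01. In limma's fit over all 18625, 2 of the 8 (Gpr34 and Irf8) lay past the threshold, an adjusted p of 0.05, beside 0.929% of all probe sets, 0.387% higher and 0.542% lower in ethanol. Groups that did not overlap with ethanol higher were found for 1 of the 8 and for 0.247% of all. Because these differences chose the genes, and Irf8 passed the filter through the group where it is high, nothing is read from those counts. Irf8 lay past the threshold in only 3 of the 15 fits with 1 array left out, without ethanol rat 4, ethanol rat 5 or water rat 4.

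**Figure D2:**
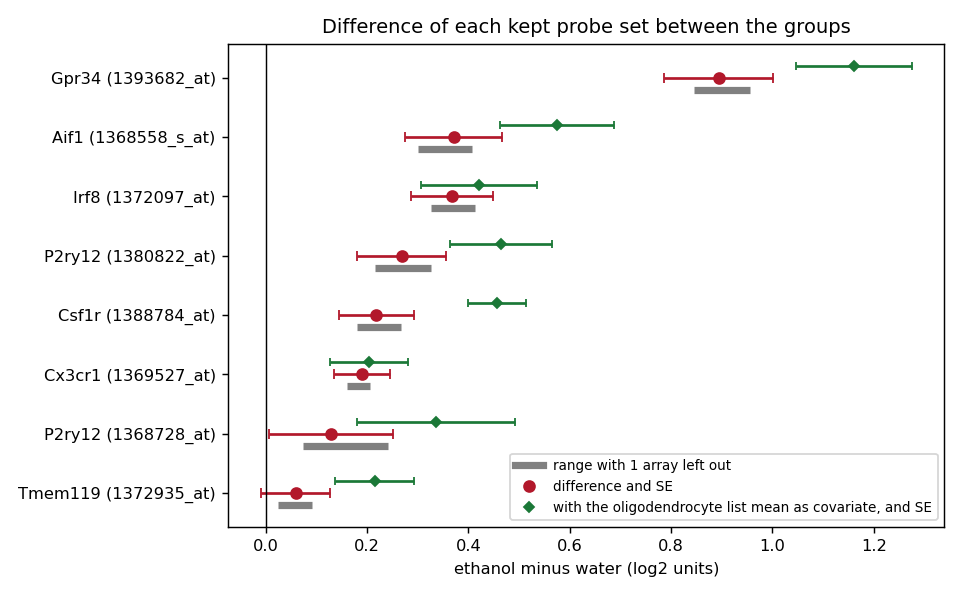
Ethanol-minus-water difference in log2 units (horizontal axis) of the 8 probe sets above the filter, with SE; grey bars span the fits with 1 array left out, and green diamonds show the fit that also holds the oligodendrocyte list mean, which was added once the values were known. All grey bars lie above 0, from 0.02 for the lowest Tmem119 fit to 0.96 for the highest Gpr34 fit. The SE of Tmem119 (0.07) exceeds its difference (0.06), so its SE bar crosses 0.

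Rats of the same group also differed in these genes, and this variation is free of the group means that chose them. Each value was taken as the deviation from its group mean, and the 21 pairs of the 7 genes were compared over 15 rats with permutation within groups. Pearson r was positive in 16 pairs, with a median of 0.54, and 11 pairs had an unadjusted p below 0.05, of which 10 passed an adjusted p of 0.05 (permutation, Benjamini-Hochberg over 21). Gpr34 and P2ry12 followed each other most closely (r = 0.82, rho = 0.83, permutation p = 9.00e-05, adjusted p = 0.00147), and r was 0.70 without ethanol rat 6 and water rat 7, the farthest from the median. Tmem119 and Csf1r came next (r = 0.80, rho = 0.69, permutation p = 7.80e-04, adjusted p = 0.00546), with r of 0.70 without water rats 7 and 8. Within ethanol rats alone r of the 10 pairs lay between 0.25 and 0.91, and within water rats alone between 0.52 and 0.89. Over the 10 pairs r lay between 0.59 and 0.82, rho between 0.50 and 0.83, and r without the 2 farthest rats between 0.51 and 0.77.

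Within the set formed by Gpr34, P2ry12, Tmem119, Csf1r and Aif1, every pair passed by Pearson's r except Tmem119 and Aif1 (r = 0.54, permutation p = 0.0465, adjusted p = 0.0888). By Spearman's rho that pair passed (rho = 0.65, adjusted permutation p = 0.0434), while Gpr34 and Tmem119 did not (rho = 0.59, adjusted permutation p = 0.0610). Irf8 passed with Aif1 alone (r = 0.59, permutation p = 0.0218, adjusted p = 0.0459), and not by Spearman's rho (rho = 0.50, permutation p = 0.0648, adjusted p = 0.124). Irf8 entered these pairs because it cleared the filter through the ethanol group, and its water mean of 6.83 lay below the limit of 6.94. Cx3cr1 passed with no member, and its 6 values of r lay between -0.28 and 0.03. Water rat 5 held the highest water value in 6 of the 8 probe sets above the filter, and water rat 7 the lowest in 3. Among ethanol rats, number 8 was highest in 4 and number 6 lowest in 4. Without water rat 5 the count of pairs past the threshold was 3, and it was 5 without water rat 7 and 6 without water rat 6 or ethanol rat 1. With each array centred on its own median it was 6.

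**Figure D3:**
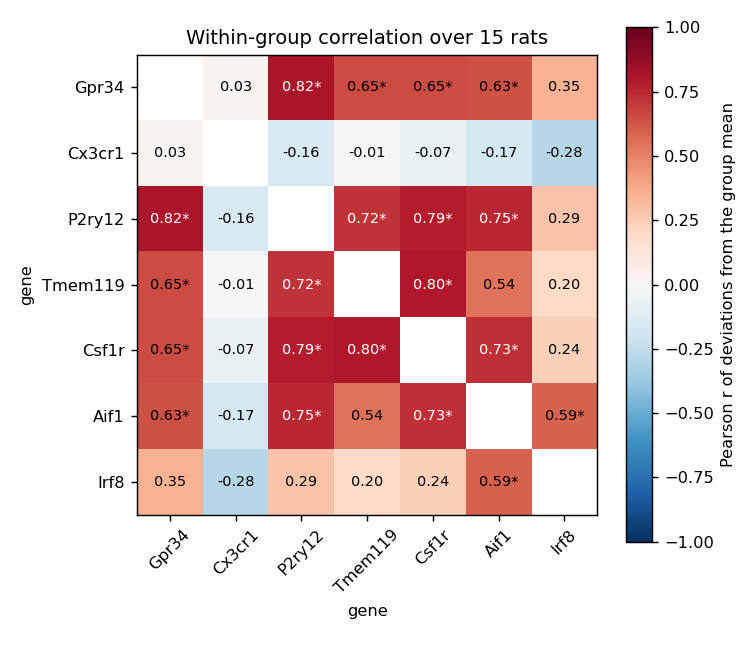
Pearson r between genes over 15 rats after removal of the group means (both axes list the 7 measured genes; colour and digits give r). Asterisks mark the 10 pairs with an adjusted permutation p below 0.05; the Cx3cr1 row stays between -0.28 and 0.03.

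In comparisons added after the values were seen, each of the 7 genes was set against the mean of 5 marker lists, 35 relations in all. Csf1r followed the oligodendrocyte list mean (r = 0.88, rho = 0.90, permutation p = 1.50e-04, adjusted p = 0.00175), within ethanol rats (r = 0.89) as within water rats (0.88), and r was 0.75 without water rats 5 and 8. No other gene passed with that list by Pearson's r, where Gpr34 had r = 0.67 (permutation p = 0.00862, adjusted p = 0.0603). Spearman's rho passed for Csf1r, Gpr34 and P2ry12. Csf1r (r = 0.89, adjusted permutation p = 7.00e-04), Tmem119 (0.89, 0.00175) and P2ry12 (0.75, 0.0311) also followed the mean of the list of other homeostatic microglia genes. No relation with the astrocyte, vessel or dopamine neuron lists passed by either measure (permutation test), and 0 had an unadjusted p below 0.05. In a separate family of 14 relations with array measures, r with the array median was 0.68 for Gpr34, 0.68 for P2ry12 and 0.72 for Tmem119 (adjusted permutation p = 0.0556 each), and r with the 3'-minus-5' difference lay between -0.16 and 0.32.

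**Figure D4:**
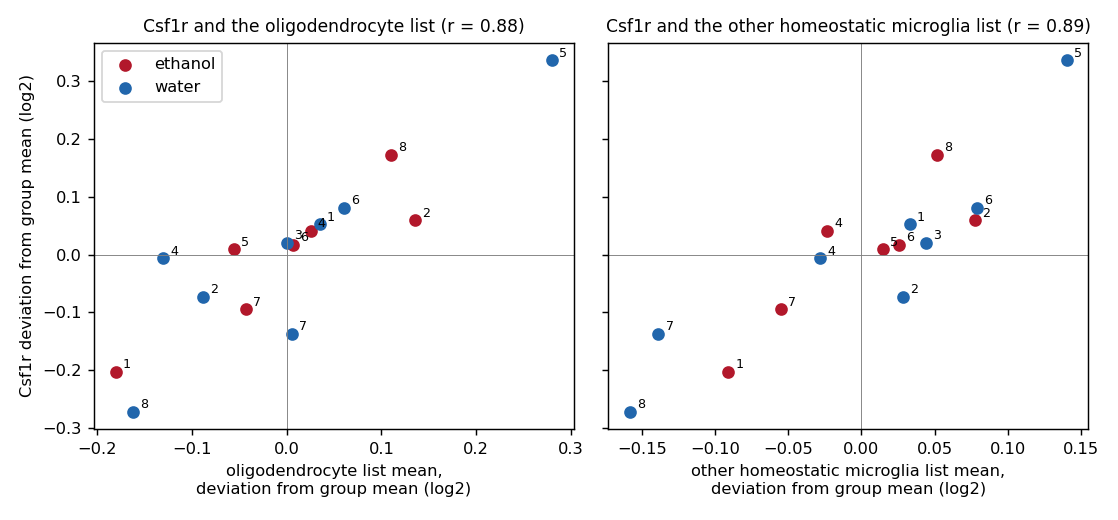
Deviation of Csf1r from its group mean (vertical axis, log2 units) against the deviation of the oligodendrocyte list mean (left) and of the other homeostatic microglia list mean (right) in 7 ethanol and 8 water rats, labelled by rat number. Both relations run upward, with r = 0.88 and r = 0.89, and water rat 5 is the highest point in each.

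The oligodendrocyte list itself was lower in ethanol rats. Its mean over the 11 genes with a probe set, which include Olig2 below the filter, ran from 12.50 to 12.79 there and from 12.72 to 13.12 in water rats. The list median was -0.22. Of the 10 genes above the filter, 4 passed as lower and none as higher, beside 0.542% lower and 0.387% higher of all probe sets. The genes were Ugt8, which makes the myelin lipid galactosylceramide (-0.69, SE 0.11, limma adjusted p = 0.00413), the myelin proteins Mal (-0.39, SE 0.08) and Cldn11 (-0.25, SE 0.05), and the lineage factor Olig1 (-0.28, SE 0.06). The list was not uniform: the myelin protein Opalin was at 0.20 (SE 0.08), the only one with a higher ethanol mean, and Mbp at -0.03 (SE 0.03). With 1 array left out, Ugt8 passed in all 15 fits, Mal in 6, Cldn11 in 4 and Olig1 in 2. In the astrocyte, vessel and dopamine neuron lists, 0 of 9, 0 of 10 and 0 of 7 genes above the filter passed limma's adjusted p, with 2, 0 and 0 at an unadjusted p below 0.05 and 0 in each with an intensity trend and robust prior. All 7 dopamine neuron genes had a higher mean in ethanol rats, with a median of 0.16 and a range from 0.05 to 0.21, and the astrocyte and vessel medians were -0.05 and 0.02. The part of these cells in the differences of the microglia genes was not tested. When the deviations were also cleared of the oligodendrocyte list mean, 0 of 21 pairs passed by Pearson's r with permutation and 0 by Spearman's rho, with 6 and 3 pairs at an unadjusted p below 0.05 and a median r of 0.28. With the mean of the 10 oligodendrocyte genes above the filter as a covariate in limma's fit, the differences were 1.16 (SE 0.11) for Gpr34, 0.57 (SE 0.11) for the brighter Aif1 probe set, 0.46 (SE 0.10) for the brighter P2ry12 probe set, 0.46 (SE 0.06) for Csf1r, 0.42 (SE 0.11) for Irf8, 0.21 (SE 0.08) for Tmem119 and 0.20 (SE 0.08) for Cx3cr1. The dimmer P2ry12 probe set was at 0.34 (SE 0.16) in that fit and did not pass limma's adjusted p. Over all probe sets above the filter, the same fit called 285 higher and 63 lower in ethanol, against 72 and 101 without the covariate. The shift toward higher ethanol values was thus not confined to the microglia genes. The covariate differed between the groups, which overlap in it over a narrow range, so these values lean on the fitted line. What part oligodendrocyte content, or array-wide scale, has in either pattern was not tested.

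By the same within-group r over 15 rats, the 5 probe sets most like Gpr34 belonged to Kctd4 (0.90), Dock10 (0.90), Myo15b (0.90), Egfl6 (0.88) and Sass6 (0.87). Those most like Csf1r belonged to Ezh2 (0.95), Prtfdc1 (0.94), Lamp2 (0.93), Cln8 (0.93) and Map4 (0.93), and those most like Cx3cr1 to Telo2 (0.86), Mtpap (0.82), Wdr73 (0.82), Slc1a4 (0.79) and Shc2 (0.79). None of the 15 is a gene of the group described here. Across all probe sets above the filter, the median r with Gpr34 was 0.09 and the 95th percentile was 0.65, so its median of 0.64 with the other members lay just under that percentile. For Csf1r the median with members was 0.69 and the 95th percentile 0.69, and for Cx3cr1 the values were -0.11 and 0.45. P2ry12 (0.74 against 0.68) and Aif1 (0.61 against 0.59) lay above their percentile, and Tmem119 (0.60 against 0.64) and Irf8 (0.26 against 0.47) below it. These rankings are a description, and the points share the arrays.

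Around the receptors, the ligands showed little difference. Of 12 genes with a probe set among the ligands, the enzymes that make or break them and the TGF-beta arm, 9 passed the filter, none passed limma's adjusted p of 0.05 in either direction, 2 had an unadjusted p below 0.05, and the same fit with an intensity trend called 0. The list median was 0.01. Il34 averaged 8.84 ± 0.13 (SD, n = 8) under water and 8.85 ± 0.08 (SD, n = 7) under ethanol. The brightest Csf1 probe set differed by 0.06 (SE 0.07), its 3 others lay between -0.03 and 0.10, and Cx3cl1 differed by 0.05 (SE 0.05). The largest value was that of the TGF-beta receptor Tgfbr1, 0.22 (SE 0.07, limma adjusted p = 0.194), and the lowest that of Nt5e, the ectoenzyme that turns AMP into adenosine, -0.18 (SE 0.08, limma adjusted p = 0.378). Smad3, a TGF-beta signal carrier, was at 0.07 (SE 0.05). Tgfb1 and Entpd1, the ectoenzyme that breaks down ATP and ADP, were below the filter.

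Of 14 other transcription factors of myeloid cells with a probe set, 11 passed the filter. By limma's adjusted p, 1 rose and none fell, beside 0.387% higher and 0.542% lower of all probe sets. An unadjusted p below 0.05 was found for 4, and 9 had a higher mean in ethanol rats, with a list median of 0.06. Irf1, an interferon-induced factor, rose by 0.22 (SE 0.05, limma adjusted p = 0.0438) over a water mean of 7.49 ± 0.12 (SD, n = 8), but passed in only 3 of 15 fits with 1 array left out (without ethanol rat 4, water rat 5 or water rat 6) and not with an intensity trend. Irf5 was at 0.23 (SE 0.06, limma adjusted p = 0.0799), Bhlhe41 at 0.15 (SE 0.05, limma adjusted p = 0.276) and the brightest Fli1 probe set at 0.16 (SE 0.07, limma adjusted p = 0.362). Runx1 was below the filter.

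Of 14 other homeostatic microglia genes with a probe set, 11 passed the filter. By limma's adjusted p of 0.05, 2 rose and none fell, beside 0.387% higher and 0.542% lower of all probe sets. With array weights limma called 1 of the list. The list median was 0.10. The median of the genes described here was 0.27, but these differences chose those genes, so nothing is read from the gap. Laptm5, a lysosomal membrane protein of blood lineage cells, rose by 0.30 (SE 0.06, limma adjusted p = 0.0290) over a water mean of 9.25 ± 0.11 (SD, n = 8), and its other probe set was at 0.31 (SE 0.08, limma adjusted p = 0.0890). Ptprc, the leukocyte phosphatase CD45, rose by 0.38 (SE 0.09, limma adjusted p = 0.0472) over a water mean of 7.38 ± 0.23 (SD, n = 8). Its other probe set, below the filter, was at 0.08 (SE 0.07). With 1 array left out, Laptm5 passed in 5 of 15 fits (without ethanol rat 1 or water rat 4, 5, 6 or 8) and Ptprc in 2 (without water rat 2 or 5). Sall1, the transcription factor that marks microglia among macrophages, was at 0.15 (SE 0.08), Rgs10, a brake on G-protein signals, at 0.21 (SE 0.06, limma adjusted p = 0.139), and the integrin Itgam at 0.06 (SE 0.08). Of 8 relatives of P2ry12 and host genes, 2 were above the filter, P2ry14 at 0.06 (SE 0.08) and Cask, and 0 passed limma's adjusted p, 0 had an unadjusted p below 0.05, and 0 passed with an intensity trend.

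Markers of other cells that share these genes were measured beside them. Of 9 macrophage genes of the meninges and vessel walls with a probe set, 7 were below the filter, Mrc1 and Cd163 among them, and the list mean ran from 6.01 to 6.87 in ethanol and from 6.09 to 6.82 in water rats. Above the filter were the class II chain Cd74 (0.92, SE 0.30, limma adjusted p = 0.198) and the chemokine Pf4 (0.14, SE 0.12), and neither passed. Among those below the filter, Lyve1, a hyaluronan receptor, differed by -0.83 (SE 0.25) and -0.50 (SE 0.14) on its pair of probe sets, with no ethanol rat above the water mean on either, Mrc1 by -0.68 (SE 0.33) and Cd163 by -0.19 (SE 0.12). Values of F13a1, Clec10a, Stab1 and Ms4a7, also below the filter, are not given here. No direction of the list is therefore read from the named genes, and the list means of the groups overlapped. Of 10 blood leukocyte genes with a probe set, 8 were below the filter, Ccr2, S100a8, S100a9, Cd3e, Cd3g and Cd79b among them, and the list mean ran from 6.13 to 6.31 in ethanol and from 6.08 to 6.21 in water rats. Plac8 (0.41, SE 0.17, limma adjusted p = 0.334) and the lysozyme Lyz2 (0.15, SE 0.06, limma adjusted p = 0.371), both above the filter, did not pass. Plac8 had a water mean of 6.85, below the filter's 6.94, and an ethanol mean of 7.26, so it cleared the filter through the ethanol group. Among genes above the filter, an unadjusted p below 0.05 was found for 1 of 2 macrophage and 2 of 2 leukocyte genes. With an intensity trend limma called 0 in both lists. Because of the filter, nothing is read from the leukocyte count.

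**Figure D5:**
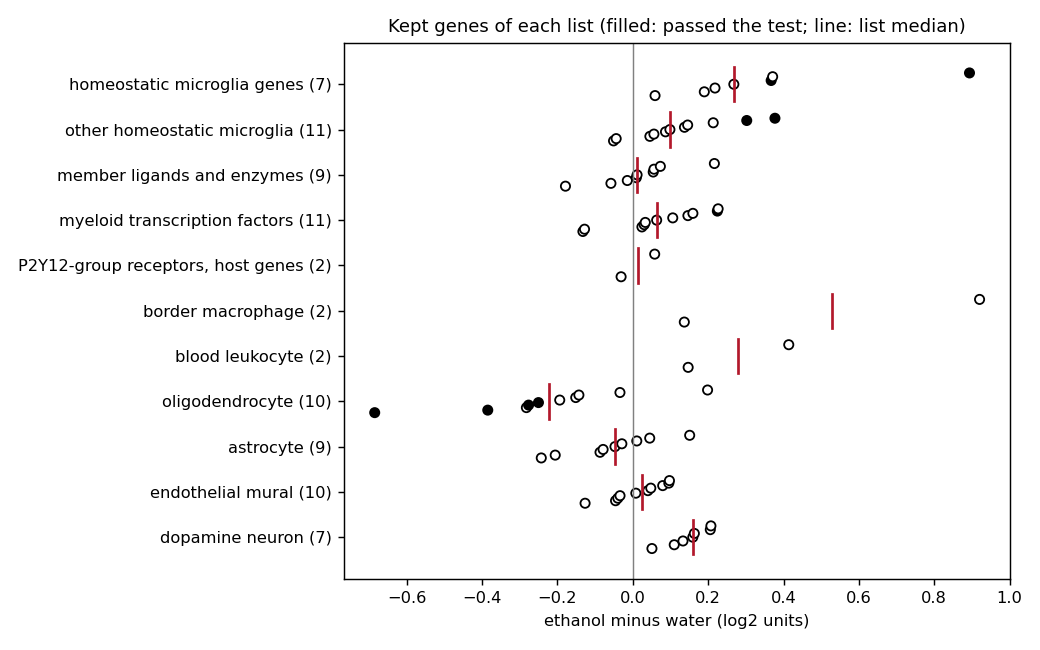
Ethanol-minus-water difference in log2 units (horizontal axis) of every gene above the filter in each list (vertical axis, number of genes in brackets), 1 point per gene; filled points passed limma's adjusted p of 0.05 and red lines are list medians. The genes described here, which were selected on these same differences, have a median of 0.27. The other homeostatic microglia genes have a median of 0.10 and the oligodendrocyte genes -0.22.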

How the data were processed

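The authors deposited 1 log2 value for each of 31099 probe sets on 15 Affymetrix arrays, made with RMA per the submitters' processing notes (version not stated there). RMA equalises the distributions of the arrays, which removes shifts common to most transcripts, and it compresses differences of dim probe sets. Samples of 25 ng RNA went through 2 amplification cycles, per the labels' protocols. The table had 0 missing values. Leaving out 57 control probe sets, those with a mean at or above the 40th percentile, a log2 value of 6.94, were kept (18625). Gene names came from the platform annotation; the Entrez numbers of all 9 probe sets of the group were found in the RefSeq table with the same symbol.

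Each probe set was fitted with limma 3.58.1 (R 4.3.3, lmFit and eBayes, two-sided, Benjamini-Hochberg over 18625); differences are ethanol minus water, with limma's moderated SE. Correlations of deviations from the group means used 100000 two-sided permutations of rats within groups (smallest possible p 1e-05), in Python 3.11.15 with numpy 2.4.6. Both steps were tested on simulated normal values. For limma the probe sets were drawn independently, and for the permutation single pairs were drawn with and without a true correlation. Variation that many probe sets share between rats was not simulated, so these tests do not cover it. The number of arrays limits the precision: the median SE was 0.06. The genes and the 11 lists were chosen with earlier results of these data known. The naming rule took the 3 genes of each list with the smallest p (given in the text where they bear on the group), a set of reference, ligand and marker genes whatever their values, and the 5 probe sets most like Gpr34, Csf1r and Cx3cr1. Olig1, Opalin, Mbp, Fli1, Lyve1 and the leukocyte genes below the filter (S100a8, S100a9, Cd3e, Cd3g, Cd79b) were named after their values were seen. Alternatives changed the filter, scaling, prior, array weights and replicate block, or left out 1 array. Each array is 1 animal per the labels, and nothing else is said of how animals were housed or batched.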

Additional observations from a re-analysis of the deposited data

Results flagged for a closer look

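In 7 of the 96 groups of 7 or 8 rats examined, 1 rat stood apart from the others by Dixon's criterion, which chance meets in about 1 in 20. Among the genes described above, this was Irf8 in water rat 4, at 7.15 with the next highest water rat at 6.87. The other flags concern list genes: Itgam in water rat 7 (7.09, the next lowest 7.48), Laptm5 in ethanol rat 1 (9.25, the next lowest 9.52), Csf1 in water rat 7 (8.59, the next lowest 8.83), Cask in water rat 5 (9.55, the next lowest 9.67), Mrc1 in water rat 6 (5.90, the next lowest 7.15) and Gjb6, an astrocyte gap junction gene, in ethanol rat 5 (10.92, the next lowest 11.21).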

How the results depend on the processing

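The median difference of the 7 genes was 0.27, stayed positive in every alternative for which it was computed, and ranged from 0.22 (without water rat 7) to 0.33 (without water rat 5) with 1 array left out; it was 0.46 with the oligodendrocyte mean as a covariate. Each of the 8 probe sets stayed higher in ethanol rats in every setting for which its difference was computed, which leaves out array weights and the intensity trend, and the 60th percentile for Cx3cr1 and Irf8. The count past the threshold was 2 of 8 in the reported fit, 1 of 9 with no filter, 1 of 6 at the 60th percentile (Irf8 was not in that fit), 1 of 8 with the replicate block and from 1 to 2 with 1 array left out; the 1 was Gpr34 each time. It was 4 with the oligodendrocyte covariate (Gpr34, Csf1r and the brighter probe sets of P2ry12 and Aif1), where Irf8 and the dimmer P2ry12 probe set were not past it. P2ry12 was past it without water rat 5. Over all probe sets 173 of 18625 passed (0.929%), 139 of 31042 with no filter and 116 at the 60th percentile. The count was 59 of 18625 with the replicate block and 348 of 18625 with that covariate. With the covariate 285 were higher and 63 lower in ethanol, against 72 and 101 in the reported fit. With 1 array left out it ran from 100 (without ethanol rat 7) to 180 of 18625, and it was 102 without ethanol rat 8. As above, nothing is read from the counts of the group. The labels do not say whether same-numbered rats were paired. Same-numbered deviations correlated from -0.41 to 0.29, and 2 of 14 rats correlated best with their own number. These values show little shared signal, but they cannot show how the numbers were assigned. The 10 correlated pairs of genes were 12 under the replicate block, 9 by Spearman's rho, 6 with arrays centred on their medians, 0 with the oligodendrocyte mean removed, and from 3 (without water rat 5) to 10 with 1 array left out. The pairs that passed by Spearman's rho were not all among the 10, as given above. Without detection calls, the mean level is the guide to background, and it limits what Irf8 and the dim Aif1 probe set can show.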
